A study of Sus scrofa with 6 samples.

Results

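The regions described here were stretches of open chromatin that lay inside introns, far from any annotated gene start, and carried a called peak in every library of the series. They were chosen by the peak calls themselves: wherever peaks of any of the 6 libraries shared 1 bp or more they were joined into a merged region, and autosomal merged regions under 5000 bp were kept when all 6 libraries had a peak there, when the region lay wholly inside a gene body, when it touched no exon and when it was more than 10 kb from every annotated start site. This gave 21402 regions, which is 27.3% of the 78533 regions with a peak in all libraries and 7.26% of the 294825 merged regions. The choice used the presence of peaks but no difference between stages. A region that lost its peak at some stage is not among them, so every count of changes below refers to regions with a called peak in each library, although 142 of them had 0 kept counts in some library.

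Single-cell ATAC-seq was used to profile accessible chromatin: Tn5, a transposase, cuts open DNA, and a droplet barcode marks the fragments of 1 cell. Somites, the segments of paraxial mesoderm from which trunk muscle, cartilage and dermis arise, were taken on embryonic day 18 (E18) or 21 (E21). The E28 samples, from embryonic day 28, were myotomes, the layer of the somite that forms muscle. Embryos were purebred Tibetan pigs (ZZ) or Duroc × Tibetan crosses (DZ), and each of the 6 libraries pooled 5 embryos of the same sow. With 1 library per stage and breed, the ZZ and DZ libraries stand as the replicates of their stage. The dissected tissue differs at E28, so stage and tissue cannot be told apart there, nor can breed and sow. The p-values measure only the spread between these libraries.

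Open chromatin inside introns often marks enhancers, DNA elements that bind transcription factors and raise the transcription of a gene over a distance. The target can be the host gene or a neighbour, and the host named below is only the gene body in which a region lies. Other intronic sites bind CTCF, the protein that anchors chromatin loops, and tend to stay open in many cell types. In the somite, E-box motifs are read by myogenic factors such as MYOD1 and MYF5, and MCAT motifs by TEAD factors.

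Between 9286 and 11243 barcodes per library were kept, with 89816504 to 133037579 Tn5 cut sites in peaks, and the shallowest libraries were those of E28. The E28 libraries also had the fewest peaks, 131975 and 137769 (ZZ, then DZ), against 217138 and 199846 at E18. A region with a peak at E18 but none at E28 is not among the intron regions. How far this moved the balance of directions below was not tested. Any pair of libraries shared 135 to 189 barcodes (1.36 to 1.70% of the smaller library). The intron regions held 10.1 to 11.6% of the kept counts of a library (mean 10.96% ± 0.669, SD, n = 6 libraries), with medians of 297 to 402 counts per region, and a kept barcode had a count in a median of 453 to 578.5 of them. Counts of all barcodes of a library were summed, so fewer cells of a type and fewer cuts per cell cannot be told apart. As a check of the tissue, peaks within 1 kb of the starts of 6 somite and dermomyotome markers summed to 200.2 to 246.1 counts per 1000000 counts of the library (CPM), and those of 10 myogenic markers to 165 and 164 CPM at E18, 167.4 and 150.7 CPM at E21 and 179 and 248.5 CPM at E28 (ZZ, then DZ). Among the latter, the starts of MYOG and CHRNA1 were higher in both E28 libraries than in both E18 libraries (MYOG 7.16 and 6.25, then 16.8 and 23.3 CPM), while those of MYF6 (10.99 and 9.57, then 8.76 and 11.2 CPM), MYMK and DES overlapped between these stages. Summed starts of 6 epithelial markers held 141 and 139 CPM at E18 but 77.1 and 70.4 CPM at E28, and those of 6 neural tube markers 240 and 271 CPM, then 141 and 190 CPM. The length covered by peaks at some of these starts also fell (KRT8 4359 and 4273, then 1573 and 1537 bp, OLIG2 6272 and 6312, then 4020 and 5639 bp). At others it changed less (ESRP1 4994 and 4750, then 4293 and 4691 bp). The part of peak length in these sums was not tested. Shared regions over a start site as a whole held 43.0 and 43.2% of kept counts at E18, then 49.9 and 47.9% at E28. Rises of marker sums are to be read against that. No peak lay within 1 kb of the start of the blood markers PTPRC and GATA1 or the endothelial marker TIE1 in any library. Of 6 blood markers 3 had counts in every library, among them TAL1 (44.05 to 58.5 CPM). The same held for 3 of 5 annotated endothelial markers, among them KDR (13.1 to 30.8 CPM). Summed starts of the blood markers held 86.2 and 82.65 CPM at E18, then 72.5 and 74.1 CPM at E28.

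The following windows of 300 bases show the sequence at the centre of the longest stretch covered by peaks of all libraries, for regions on which the account below turns. The first 4 rose from E18 to E28, the next 2 fell, and the last 2 differed little between stages. They come from RefSeq's Sscrofa11.1 sequence, plus strand, 5′ to 3′: chr3:14106045-14106344 (AUTS2), chr9:107716869-107717168 (LAMB1), chr4:38887371-38887670 (MATN2), chr2:46575457-46575756 (TEAD1), chr11:8534715-8535014 (FRY), chr10:24035074-24035373 (NAV1), chr1:25736527-25736826 (NHSL1) and chr5:12072169-12072468 (SYN3). Capitals mark matches on either strand to the myogenic E-box CAGCTG, the TEAD motif GGAATG, the AP-1 motif TGANTCA, the NFI motif TTGGCA, the grainyhead motif AACCNGTT, the MEF2 motif and the CTCF core CCANNAGNNGGC. A match is a description of the letters and no evidence of binding.
AUTS2: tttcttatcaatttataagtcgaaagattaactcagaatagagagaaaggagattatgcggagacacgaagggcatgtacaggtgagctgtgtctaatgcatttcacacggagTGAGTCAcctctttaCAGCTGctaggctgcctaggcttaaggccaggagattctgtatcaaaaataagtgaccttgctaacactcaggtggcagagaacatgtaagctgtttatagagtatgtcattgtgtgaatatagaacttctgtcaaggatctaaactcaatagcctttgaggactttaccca
LAMB1: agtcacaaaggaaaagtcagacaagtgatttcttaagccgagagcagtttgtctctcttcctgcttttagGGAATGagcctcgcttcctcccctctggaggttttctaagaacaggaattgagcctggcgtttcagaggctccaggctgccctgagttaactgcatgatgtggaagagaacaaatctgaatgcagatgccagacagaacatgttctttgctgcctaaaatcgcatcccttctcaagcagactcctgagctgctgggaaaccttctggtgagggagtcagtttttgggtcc
MATN2: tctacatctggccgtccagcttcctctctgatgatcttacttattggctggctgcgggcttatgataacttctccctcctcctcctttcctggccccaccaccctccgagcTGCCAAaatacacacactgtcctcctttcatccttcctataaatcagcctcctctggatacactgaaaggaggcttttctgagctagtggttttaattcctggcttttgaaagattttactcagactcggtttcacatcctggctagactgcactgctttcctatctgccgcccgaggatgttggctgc
TEAD1: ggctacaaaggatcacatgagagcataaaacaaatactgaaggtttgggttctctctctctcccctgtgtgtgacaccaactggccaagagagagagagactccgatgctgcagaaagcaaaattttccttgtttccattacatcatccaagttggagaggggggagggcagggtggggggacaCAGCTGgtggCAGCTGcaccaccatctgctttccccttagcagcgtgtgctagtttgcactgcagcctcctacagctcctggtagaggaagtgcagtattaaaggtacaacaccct
FRY: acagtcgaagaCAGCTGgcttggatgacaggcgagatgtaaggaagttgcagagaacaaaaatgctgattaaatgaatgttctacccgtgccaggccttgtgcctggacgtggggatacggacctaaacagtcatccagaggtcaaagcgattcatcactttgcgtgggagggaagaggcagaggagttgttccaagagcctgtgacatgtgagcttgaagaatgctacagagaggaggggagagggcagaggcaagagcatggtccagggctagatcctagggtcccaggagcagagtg
NAV1: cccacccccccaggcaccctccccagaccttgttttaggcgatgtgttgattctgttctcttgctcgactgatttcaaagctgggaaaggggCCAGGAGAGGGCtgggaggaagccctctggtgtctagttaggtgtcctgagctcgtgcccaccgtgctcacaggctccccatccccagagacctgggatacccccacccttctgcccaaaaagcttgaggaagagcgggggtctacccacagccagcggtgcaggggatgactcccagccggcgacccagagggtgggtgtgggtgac
NHSL1: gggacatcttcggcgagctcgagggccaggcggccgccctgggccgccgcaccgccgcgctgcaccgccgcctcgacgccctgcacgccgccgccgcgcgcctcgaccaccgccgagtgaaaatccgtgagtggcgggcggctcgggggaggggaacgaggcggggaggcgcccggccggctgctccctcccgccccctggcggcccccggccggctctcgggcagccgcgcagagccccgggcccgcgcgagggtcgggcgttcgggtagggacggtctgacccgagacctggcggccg
SYN3: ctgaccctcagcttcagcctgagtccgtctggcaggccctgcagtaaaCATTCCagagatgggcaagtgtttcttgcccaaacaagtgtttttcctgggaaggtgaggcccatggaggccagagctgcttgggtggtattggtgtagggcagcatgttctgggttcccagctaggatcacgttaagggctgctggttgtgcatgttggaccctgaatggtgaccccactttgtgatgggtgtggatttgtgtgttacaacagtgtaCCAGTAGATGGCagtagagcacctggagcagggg

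The AUTS2 window held an E-box and an AP-1 motif 8 bases apart, the TEAD1 window held 2 E-boxes, and a single E-box stood in the FRY window. In the LAMB1 window the capitals are a TEAD motif, in the MATN2 window an NFI motif, in the NAV1 window a CTCF core and in the SYN3 window a CTCF core and a TEAD motif. The NHSL1 window differed in composition, with 80.7% G and C and 50 CpG dinucleotides, against 41.0% and 4 in the AUTS2 window. Medians were 48.7% and 5 over all intron regions, and 67% and 26 over shared regions at a start site. Membership rests on RefSeq's annotation, and whether the NHSL1 region holds a start or exon missing from it was not tested.

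Regions as a whole were of moderate size and strength. The median length was 1114.5 bp and the median distance to the nearest start site 43654 bp (10001 to 882520 bp). For the regions themselves, CPM is scaled to the counts in shared regions (with TMM factors). The median over regions of mean CPM was 4.07, and the median density was 4.89 CPM per kb of covered sequence, against 14.9 CPM per kb in the 14349 shared regions over a start site and 5.01 CPM per kb in 8984 shared intergenic regions over 50 kb from any start. They lay in 5312 host genes, of which 4344 were protein coding and 925 were lncRNA genes, and 358 regions lay in more than 1 gene. Intron 1 of the host transcript held 4398 regions, intron 2 held 4222 and later introns held 12733. Among regions next to the distance limit, those just inside lay 10001 bp from a start (SLC22A2 and PADI1) and had log2 fold changes of 0.16 and 0.29 from E18 to E28, while those just outside lay at 9997 bp (NRF1) and 9998 bp (TRERF1), with 0.01 and -1.31, none of them called. With covered length as an offset, as described below, PADI1 came to 1.28 and TRERF1, whose covered lengths differed 4.15 times, turned to 0.56, and both were called (edgeR adjusted p = 0.000201 and 0.0481). The median of all intron regions in that fit was 0.50. These values are a description.

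To ask how far these regions changed between stages, the counts of the 78533 shared regions were fitted together (edgeR quasi-likelihood test, additive terms for stage and breed, adjusted p under 0.05 over all shared regions), and a region past that threshold is called higher or lower. From E18 to E28, 4248 of the 21402 intron regions were called higher and 3524 lower, 36.3% together. Over all shared regions 37.1% were called, 19% higher and 18.1% lower, so the intron regions changed about as often as shared regions in general. From E18 to E21, 1433 intron regions were called higher and 314 lower (6.70% and 1.47%), against 4.8% and 1.78% of all shared regions and 6.59% in either direction. From E21 to E28, 649 were called higher and 1138 lower (3.03% and 5.32%), against 2.53% and 4.61% of all shared regions and 7.13% in either direction. The balance of this step reversed when covered length, described below, was entered as an offset, with 6295 intron regions higher and 603 lower against 30.2% and 2.26% of all shared regions, which reversed likewise. The offset moved the median log2 fold change of this step to 0.37 over intron regions and 0.33 over all shared regions. The balance of the first step kept its side with 3199 higher and 960 lower, against 13% and 4.69% of all shared regions. In the first step start-site regions showed 1.21% higher and 1.78% lower and intergenic regions 8.33% and 1.35%, and these differences between sets of regions were not tested.

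These counts depended on single libraries. From E18 to E28, 4626 intron regions were called without E18 ZZ and 2655 without E18 DZ, and 5985 to 8244 without any other library. From E18 to E21, 663 were called without E18 ZZ, 74 without E18 DZ, 5065 without E28 ZZ and 5122 without E28 DZ. From E21 to E28, 4650 were called without E28 ZZ and 1320 to 2306 without an E18 library or E28 DZ. Without E21 ZZ or E21 DZ edgeR called 0 intron regions in either step, although 3479 to 4975 had an unadjusted p under 0.05 from E18 to E21 and 4150 and 4264 from E21 to E28. DESeq2, run on all libraries, called 4261 and 4490 in these steps.

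**Figure D1:**
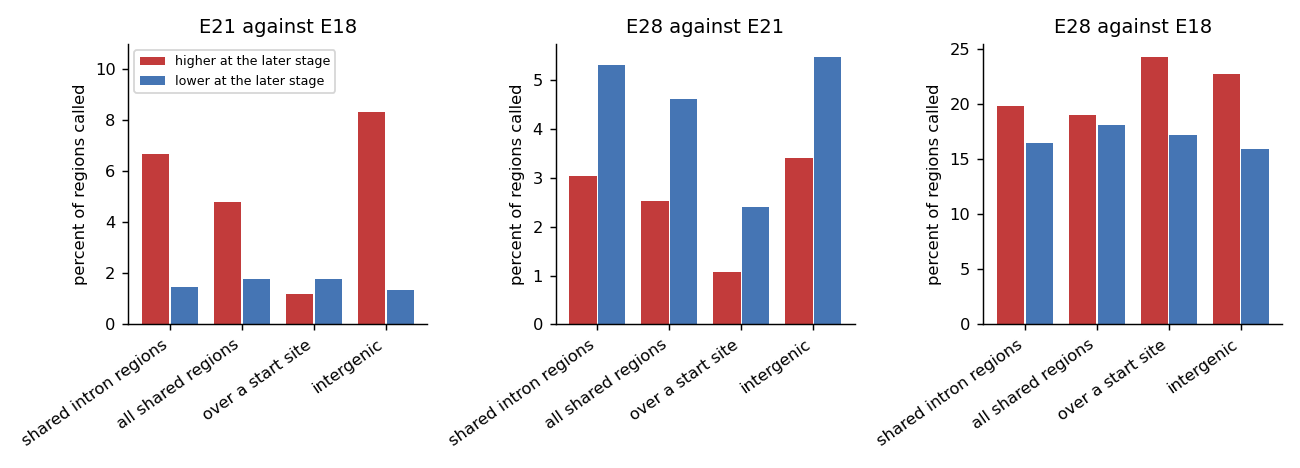
Percent of regions called higher (red) or lower (blue) at the later stage in each of the 3 stage comparisons, for the shared intron regions, all shared regions, shared regions over a start site and shared intergenic regions; the vertical axes differ between panels. From E18 to E21 the intron regions show 6.70% higher and 1.47% lower, and from E21 to E28 3.03% higher and 5.32% lower.

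The amount of DNA called as peak moved with these counts. Counts exist only inside the peaks of each library, and peaks were shorter at E28: the median covered length per intron region was 856 and 762 bp at E18 (ZZ, then DZ), 809 and 860 bp at E21, and 597 and 607 bp at E28. Across intron regions the log2 fold change from E18 to E28 and the log2 ratio of covered lengths had a Pearson correlation of 0.911 (n = 21402 regions, which share the same 6 libraries), and in 92.4% of the regions called, counts and covered length moved the same way. When covered length was entered as an offset, so that density along the covered DNA was compared, 9937 intron regions were called higher and 1358 lower, against 45.8% and 6.39% of all shared regions. The median log2 fold change of the intron regions was then 0.50 in place of 0.03, and that of all shared regions 0.43 in place of -0.02. The same direction was called with and without the offset for 4106 of the higher and 1207 of the lower regions, and 163 regions called lower were called higher in density.

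**Figure D2:**
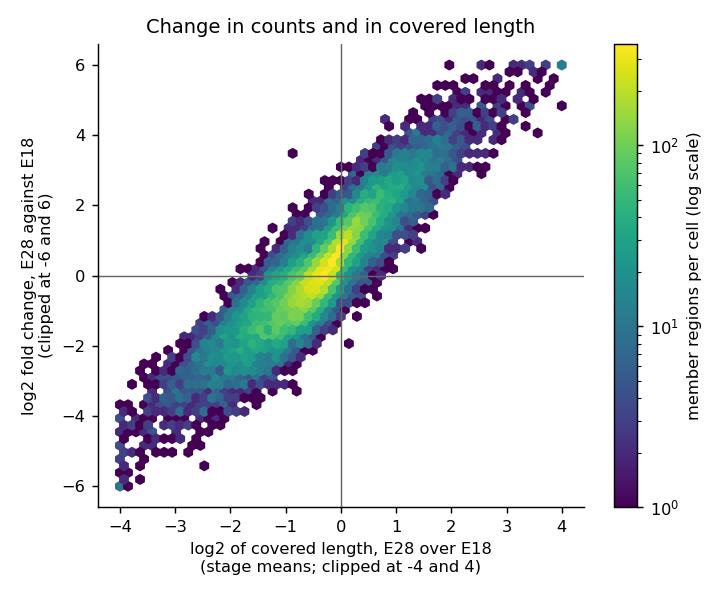
Log2 fold change in counts from E18 to E28 (vertical) against the log2 ratio of covered lengths (horizontal, stage means) for the 21402 intron regions, with colour giving the number of regions on a log scale and values beyond the axes drawn at their edge. The cloud follows the diagonal, with a Pearson correlation of 0.911.

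Regions named for a rise, a fall or a turn were therefore taken from the 5091 intron regions whose longest and shortest covered lengths differed by at most 1.5 times. Of these, 1206 were called from E18 to E28 (23.7%), 1073 of them higher, with 249 called in all without E18 DZ, 535 without E18 ZZ and 852 to 1181 without any other library. Of all 25935 shared regions within the limit 29% were called, 24% higher and 4.98% lower. The limit kept 1073 of the 4248 higher but few of the 3524 lower intron regions, and it acts on covered length, which moved with the counts and was shorter at E28, so nothing is read from the balance of directions within it. From E18 to E21, 206 rose and 11 fell, against 2.79% of the shared regions within the limit (2.46% higher and 0.332% lower), and from E21 to E28 115 rose and 40 fell, against 2.44% (1.8% and 0.636%).

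The largest rise lay in intron 2 of AUTS2, which encodes a chromatin-associated regulator known from brain development (chr3:14104329-14107915, 3587 bp, 240443 bp from the nearest start). CPM there was 5.88 and 6.36 at E18 (ZZ first), 20.1 and 32.5 at E21, then 59.0 and 88.7 at E28. Levels were higher at each later stage and no stage overlapped another. The log2 fold change from E18 to E28 was 3.56 ± 0.18 (SE, edgeR adjusted p = 0.00234), and 3.16 with the covered-length offset. Its neighbours on either side, at -9.86 and 6.02 kb along the chromosome, rose by 3.20 ± 0.34 and 2.34 ± 0.40 log2 units (edgeR adjusted p = 0.00319 and 0.00876), though their covered lengths varied 4.52 and 1.85 times.

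The LAMB1 and MATN2 regions ranked next, and ADAMTSL1, another gene of a matrix protein, was sixth. In intron 14 of LAMB1, the laminin β1 chain of basement membranes (chr9:107716369-107717851), CPM was 2.85 and 3.38 at E18, 5.69 and 12.7 at E21, then 25.1 and 33.3 at E28, a log2 fold change of 3.21 ± 0.29 (edgeR adjusted p = 0.00270). In intron 2 of MATN2, the matrix protein matrilin 2 (chr4:38886689-38888269), CPM went from 7.16 and 6.13 over 21.5 and 22.9 to 61.1 and 42.6, a log2 fold change of 2.95 ± 0.18 (edgeR adjusted p = 0.00234). Intron 26 of ADAMTSL1, a secreted protein of the ADAMTS-like family (chr1:203973849-203975661), showed 2.88 and 3.63 CPM at E18 and already 11.06 and 18.2 at E21, with 22.9 and 24.2 at E28. In all 3 the E18 libraries were lowest and the E28 libraries highest.

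The other 6 of the 10 were in SPRY1, GHR, TRIO, PLEKHG1, PACSIN2 and SMG6. Within SPRY1, an antagonist of FGF signalling (chr8:100726853-100729448), CPM was 7.63 and 5.29 at E18, 14.5 and 18.9 at E21, then 48.4 and 49.9 at E28. For GHR, the growth hormone receptor (intron 4, chr16:27369228-27370198), the values were 2.69 and 2.68, then 6.12 and 7.66, then 17.9 and 19.8. The guanine nucleotide exchange factors TRIO (chr16:3836908-3838205) and PLEKHG1 (chr1:15506196-15507970) rose by 2.83 ± 0.19 and 2.95 ± 0.26 log2 units, the membrane-bending protein gene PACSIN2 (chr5:5924899-5926572) by 2.84 ± 0.26, and SMG6, an endonuclease of nonsense-mediated decay (chr12:48276177-48278216), by 2.79 ± 0.27. Adjusted p (edgeR) of the 10 largest rises stayed between 0.0001013 and 0.01919 when each library was left out in turn.

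The largest falls were likewise taken from within the limit on covered length. That limit kept few of the lower regions, so the sizes of falls and rises are not compared. The falls described are of hosts with a gene symbol, with 4 regions of LOC hosts passed over below the first. Intron 1 of FRY, the homologue of a Drosophila gene for cell shape (chr11:8534431-8535432), held 14.9 and 14.6 CPM at E18, 8.02 and 15.2 at E21, then 3.56 and 4.09 at E28. The E21 libraries differed from each other by more than the E18 or E28 pairs did, and both E28 libraries lay below all others. The log2 fold change from E18 to E28 was -1.96 ± 0.30 (edgeR adjusted p = 0.00664), or -1.43 with the covered-length offset. In intron 6 of NAV1, a microtubule-binding neuron navigator (chr10:24033079-24037801), CPM was 55.8 and 60.6, then 32.0 and 29.4, then 21.6 and 16.6, a log2 fold change of -1.62 ± 0.15 (edgeR adjusted p = 0.00269). Intron 3 of IGSF3, a membrane protein of the immunoglobulin superfamily (chr4:104085755-104087851), fell from 31.1 and 34.5 CPM over 19.996 and 17.9 to 10.5 and 10.0. Intron 1 of SMOC1, a secreted modulator of BMP signalling (chr7:93537068-93538752), fell from 30.2 and 26.3 CPM over 18.4 and 17.2 to 11.12 and 9.44, and intron 6 of LCA5L (chr13:202997365-202998807) from 36.5 and 35.6 over 24.6 and 23.3 to 15.6 and 12.3.

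Another 4 of the named falls were in TP63, SHROOM3, ATP2B2 and MTUS1. In intron 4 of TP63, the transcription factor of stratified epithelia, CPM was 13.7 and 17.5 at E18, 12.001 and 9.75 at E21, then 5.06 and 6.63 at E28, a log2 fold change of -1.42 ± 0.26 (edgeR adjusted p = 0.0105). In intron 13 of SHROOM3, an actin-binding protein needed for neural tube closure (chr8:72435272-72436197), it was 11.136 and 16.3, then 7.83 and 8.90, then 5.01 and 5.45. ATP2B2, a calcium pump of neurons and hair cells (chr13:66792845-66793573), went from 9.98 and 11.4 over 5.16 and 5.80 to 3.21 and 4.46, and MTUS1, a microtubule-associated protein (chr17:5417832-5419192), from 15.0 and 15.7 over 18.4 and 12.5 to 5.51 and 5.26. Start sites of all 6 epithelial markers carried peaks in every library, and their summed level was lower at E28 than at E18, with 5 of the 6 lower in both E28 libraries than in both E18 libraries (KRT8 at 36.2 and 34.5, then 5.68 and 5.10 CPM) and FOXA2 not (27.2 and 26.8, then 27.6 and 29.3 CPM), and the part of such cells in these falls was not tested. Without E18 DZ the falls in MTUS1, ATP2B2, TP63, SHROOM3 and PLEKHG1 no longer passed the threshold (edgeR adjusted p = 0.067, 0.07229, 0.1008, 0.1073 and 0.09856 at the highest over left-out libraries), and the fall in ATP2B2 was also lost without E18 ZZ.

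**Figure D3:**
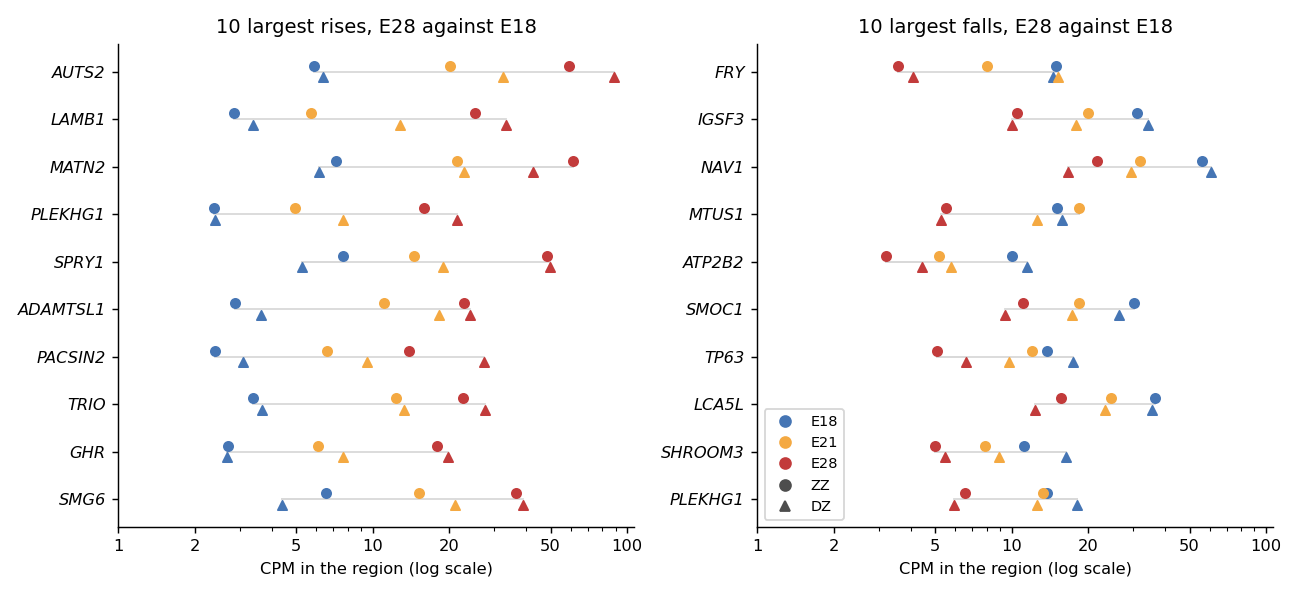
CPM in each of the 6 libraries (log scale) for the 10 intron regions with the largest rises and the 10 with the largest falls in hosts with a gene symbol from E18 to E28 among those with covered lengths within 1.5 times; colour gives the stage, circles are ZZ and triangles DZ. In every row the E18 and E28 libraries stand apart, the rows having been chosen by this change, and the AUTS2 region spans 5.88 to 88.7 CPM.

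PLEKHG1 appears among both rises and falls. Its region at chr1:15452676-15453886 lay in the same intron 2 as the rising one and went from 13.8 and 18.0 CPM at E18 over 13.3 and 12.6 at E21 to 6.58 and 5.92 at E28 (log2 fold change -1.34 ± 0.23, edgeR adjusted p = 0.00886). Of its 15 regions, 3 were called higher and 3 lower. Of the 537 host genes with 10 or more regions, 444 (82.7%) had regions called in both directions from E18 to E28, 60 had only higher ones, 30 only lower ones and 3 none. With the covered-length offset 335 (62.4%) had both. These counts are descriptions, read against the 19.8% of intron regions called higher and 16.5% called lower. The SD of the log2 fold change within a host (1376 hosts with 5 or more regions) was 1.48, close to the 1.499 over all intron regions.

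Log2 fold changes in counts of neighbouring regions resembled each other only slightly. The Pearson correlation of log2 fold changes of adjacent regions of the same host was 0.148 for 3377 pairs under 5 kb apart, 0.0984 for 6603 pairs 5 to 20 kb apart and 0.0215 for 769 pairs over 100 kb apart, with 56.1%, 53.7% and 51.4% of pairs sharing a sign. All pairs come from the same 6 libraries, and these values are descriptions across regions.

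The hosts with most regions were long genes. AUTS2 held 62, of which 16 were called higher and 10 lower from E18 to E28, NAV2, a neuron navigator, 59 (12 and 14), RAD51B, a DNA repair gene, 53 (14 and 10), SLIT3, a secreted guidance ligand, 53 (9 and 12), WWOX 49 (15 and 10), and TENM4, a teneurin of neural adhesion, and LRMDA 46 each (10 and 9, 14 and 11), against 19.8% and 16.5% of all intron regions. With the covered-length offset higher calls outnumbered lower ones in each of these hosts, as over all intron regions, with 31 and 2 in AUTS2, 23 and 4 in NAV2, 30 and 7 in RAD51B, 22 and 2 in SLIT3, 23 and 3 in WWOX, 20 and 3 in TENM4 and 21 and 8 in LRMDA. Within AUTS2 the log2 fold changes ranged from -2.88 to 4.51, and 4 regions in a row, the named one among them, were called higher.

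**Figure D4:**
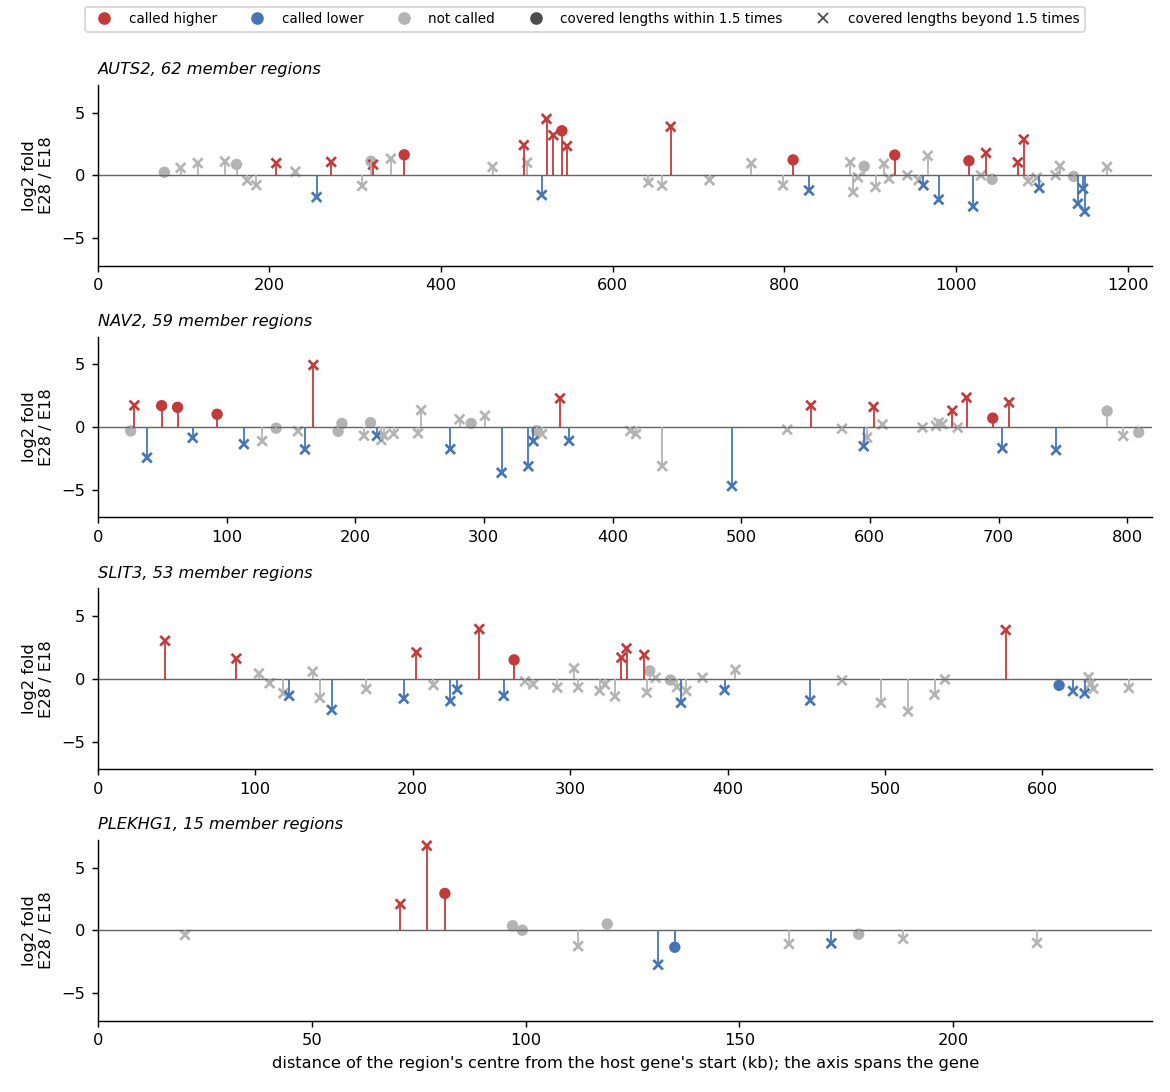
Log2 fold change from E18 to E28 of every intron region of AUTS2 (62), NAV2 (59), SLIT3 (53) and PLEKHG1 (15), placed by distance in kb from the start of the host gene; red and blue are called higher and lower, grey is not called, circles have covered lengths within 1.5 times and crosses do not. Each gene holds red and blue regions, and 4 neighbouring AUTS2 regions are red in a row.

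From E18 to E21 the largest rises within the limit in hosts with a gene symbol were in ADAMTSL1 (2.14 ± 0.23 log2 units), CNGB3, a cone channel subunit (2.12 ± 0.44), GAREM1, an adaptor of growth factor receptors (2.09 ± 0.28), and AUTS2 (2.06 ± 0.17), with edgeR adjusted p of 0.0189, 0.0490, 0.0238 and 0.0186. The GAREM1 region (chr6:116205792-116206693) had 2.88 and 2.69 CPM at E18, 9.45 and 15.1 at E21, then 12.3 and 18.0 at E28, so most of its change came in the first step. The largest falls in such hosts, behind one of -1.22 in LOC110255835, were in PAMR1 (-1.22 ± 0.21), ARID3B, a DNA-binding protein (-1.08 ± 0.19), FARP1, a guanine nucleotide exchange factor (-1.03 ± 0.19), and NAV1 (-0.93 ± 0.14), with edgeR adjusted p of 0.0347, 0.0347, 0.0399 and 0.0289. As for every intron region, these calls did not hold when a library of E21 was left out. The log2 fold changes kept their direction over left-out libraries, with the rises between 1.57 and 2.56 and the falls between -1.28 and -0.74.

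From E21 to E28 the largest rises in hosts with a gene symbol were in JADE1, a scaffold of a histone acetyltransferase complex, UNC13B, a vesicle priming protein, COBL, an actin nucleator, and DPYSL2, a microtubule regulator of axons. UNC13B (chr1:236118917-236119924) had 2.50 and 1.86 CPM at E18, 2.07 and 1.84 at E21, then 8.73 and 9.11 at E28, a log2 fold change of 2.20 ± 0.30 in this step (edgeR adjusted p = 0.0258). The values of JADE1, COBL and DPYSL2 were 2.41 ± 0.36, 2.03 ± 0.37 and 2.01 ± 0.30. Falls in the same step, behind one of -1.65 in LOC106509952, were largest in FRY (-1.56 ± 0.30), MTUS1 (-1.51 ± 0.24), TTC28 (-1.40 ± 0.27) and TLE4, a Groucho corepressor (-1.37 ± 0.28). As for every intron region, these calls were lost without either E21 library. Their log2 fold changes kept their direction over left-out libraries, with the rises between 1.67 and 2.82 and the falls between -1.94 and -0.95.

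Among all intron regions 35 were called higher at E21 than at E18 and then lower at E28, and 23 the reverse (0.164% and 0.107%, against 0.0866% and 0.0891% of all shared regions). Within the 1.5 times limit these were 3 and 1, out of 4 and 3 among all shared regions (0.0154% and 0.0116%). CGNL1, a protein of cell junctions (chr1:114494312-114497371), had 13.4 and 10.3 CPM at E18, 25.1 and 26.6 at E21, then 14.8 and 9.82 at E28. MPPED2 (chr2:30159334-30161654) had 10.6 and 10.6, then 18.8 and 21.5, then 10.8 and 10.9, and GULP1, an engulfment adaptor (chr15:93019965-93021532), 10.4 and 9.39, then 24.5 and 27.7, then 14.0 and 15.2. ARID3B (chr7:58954577-58957055) dipped instead, from 15.7 and 18.1 CPM to 7.27 and 8.71 and back to 21.3 and 19.9. In each of the 4 the E21 libraries lay outside the range of the other stages, but the regions were picked for calls in both steps, so this separation is no further result. As for every intron region, the calls from E18 to E21 were lost without either E21 library. With the covered-length offset the second turn of MPPED2 was -0.49 log2 units and no longer called (edgeR adjusted p = 0.0515), while the other 3 kept both calls. The offset moved all regions upward in that step, with a median of 0.37 over all intron regions, so the lost call does not show that MPPED2 stayed level.

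The highest mean level of any intron region, 147.3 CPM, was in the unnamed gene LOC106504325 (chr7:10867619-10870509), with 146 and 93.8 CPM at E18, 137.7 and 132.5 at E21, then 142.4 and 231.4 at E28, a log2 fold change from E18 to E28 of 0.64 that was not called (edgeR adjusted p = 0.130). It and LOC106509595, which ranked below TEX14 and above CREB3L1, were added after their values were seen. Among the 5 regions with the highest means in genes with a symbol, the largest log2 fold change from E18 to E28 was 0.41. TEX14, a gene of germ cell bridges (intron 1, chr12:34922352-34925585), held 105 and 102 CPM at E18, 108 and 94.3 at E21, then 135 and 119 at E28. CREB3L1, a transcription factor of the endoplasmic reticulum (chr2:16204333-16208653), held 76.4 and 76.8, then 80.1 and 97.5, then 93.9 and 83.8. RPS6KA2, MAML3 and CORO1C followed with means of 82.9, 76.6 and 76.5 CPM, and per kb of covered sequence the 5 ranged from 20.8 CPM (CREB3L1) to 40.2 CPM (TEX14). Their log2 fold changes from E18 to E28 were between 0.22 and 0.41. That of CREB3L1 was not called, and those of the other 4 were called with all libraries. The TEX14 call was lost in each of the 6 fits with a library left out, those of RPS6KA2 and MAML3 in 4 and that of CORO1C in 3. With the covered-length offset all 5 were called higher, with 0.41 for TEX14, 0.35 for CREB3L1, 1.11 for RPS6KA2, 1.0036 for MAML3 and 0.61 for CORO1C. The median of all intron regions in that fit was 0.50, above the values of TEX14 and CREB3L1.

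Among regions with a change under 0.1 log2 units in all 3 comparisons, the most open were in ELMSAN1 (chr7:97094150-97099082), SHROOM3 (chr8:72245543-72248938) and NHSL1 (chr1:25734916-25738358). NHSL1 held 49.2 and 49.6 CPM at E18, 46.7 and 48.1 at E21, then 52.3 and 47.2 at E28. The SHROOM3 region held 51.5 and 54.6, then 50.8 and 58.4, then 52.1 and 61.9, in contrast to the falling region of the same gene. ELMSAN1 held 58.9 to 73.1 CPM over the 6 libraries, with covered lengths up to 1.66 times apart. With the covered-length offset it came to 0.69 log2 units (edgeR adjusted p = 7.81e-05), against a median of 0.50 over all intron regions in that fit.

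The 17 myogenic regulator genes with intron regions held 127, of which 24 were called higher and 32 lower from E18 to E28 (18.9% and 25.2%, against 19.8% and 16.5% of all intron regions), with a median log2 fold change of -0.06. With the covered-length offset, which moved the median of all intron regions from 0.03 to 0.50 and called 9937 of 21402 higher and 1358 lower, the list's median was 0.42, with 54 called higher and 6 lower. Counts and medians given below with the offset are to be read against these, and counts without it against 19.8% and 16.5%. PAX3, the factor of early muscle progenitors, had 6 regions, 4 called lower and 0 higher (median -1.45, and -0.23 with the offset, where 1 was called lower), and none of the 6 was within the 1.5 times limit. EYA2 had 6 of 17 lower and 1 higher, with a median of -0.68 that became 0.09 with the offset, where 4 were higher and 2 lower. TCF12, an E protein, had 3 of 6 higher and 1 lower (median 1.33, and 1.44 with the offset). Inside TEAD1 (chr2:46575149-46575996, intron 2) the region with the largest change within the limit had 3.42 and 2.82 CPM at E18, 7.28 and 6.75 at E21, then 11.096 and 16.6 at E28, a log2 fold change of 2.14 ± 0.30 (edgeR adjusted p = 0.00560), while 4 of the 16 TEAD1 regions were called higher and 5 lower, and with the offset 8 and 0.

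NFI genes, which encode CCAAT-binding factors that include the fetal muscle regulator NFIX, held 30 regions, with 15 called higher and 2 lower from E18 to E28, with a median log2 fold change of 0.94 (0.84 with the offset, where 20 were higher and 1 lower). Without the offset the called shares were 50% and 6.67%, against 19.8% and 16.5% of all intron regions. All 3 NFIX regions were called higher, as were 6 of 15 in NFIA and 6 of 11 in NFIB, with 1 lower in each of the latter genes. The NFIX region within the limit (chr2:65976257-65976946) had 1.46 and 1.39 CPM at E18, 2.31 and 1.82 at E21, then 5.46 and 8.67 at E28 (log2 fold change 2.30 ± 0.38, edgeR adjusted p = 0.00811, and 0.0688 at the highest, without E18 DZ). SoxD genes held 33 regions with 7 called each way (median 0.38), and with the offset 16 were higher and 3 lower (median 0.49). FOXP genes held 28 with 9 higher and 5 lower (median 0.62), and with the offset 16 and 1 (median 0.76). In SOX6, a repressor of slow muscle genes (chr2:43025817-43026654), the named region rose by 1.60 ± 0.28 log2 units (edgeR adjusted p = 0.00910, and 0.0876 at the highest, without E18 DZ).

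Genes of collagens, laminins and other matrix proteins held 126 regions in 20 hosts, 39 called higher and 13 lower (31.0% and 10.3%, against 19.8% and 16.5% of all intron regions). Their median log2 fold change was 0.60 (0.80 with the offset, where 82 were called higher and 1 lower). COL5A2, a fibrillar collagen chain, accounted for 9 of the higher calls among its 15 regions. Summed starts of 6 mesenchyme markers held 300.5 and 307 CPM at E18 and 369 and 346.4 CPM at E28, though TBX18 overlapped between these stages. All shared regions over a start site also took a larger part of kept counts, 43.0 and 43.2% at E18, then 49.9 and 47.9% at E28. The part of such cells in these calls was not tested. Mesenchymal transcription factor genes held 163 regions (40 higher, 33 lower, median 0.02, and 66 and 20 with the offset, median 0.47), among them EBF1, whose named region (chr16:64424162-64425204) went from 4.58 and 4.50 CPM over 7.93 and 9.42 to 14.6 and 16.4. Signalling genes held 236 (54 and 43, median 0.10, and 115 and 14 with the offset, median 0.52), and zinc finger and homeodomain genes with long introns 332 (64 and 72, median -0.02, and 157 and 22 with the offset, median 0.51). In PRDM16, a regulator of brown fat and neural stem cells, 12 of 30 regions were called lower and 0 higher (median -0.50), and with the offset 9 were higher and 3 lower (median 0.22), below the median of all intron regions in either fit. BACH2, a transcriptional repressor, had 9 of 20 higher and 3 lower (median 1.33, and 0.90 with the offset). The HOX cofactor genes held 60 regions (10 higher, 16 lower, median -0.37, and with the offset 23 higher, 9 lower, median 0.21). MEIS2 stayed low in either fit, with 5 of 7 lower and 0 higher, or 4 lower and 1 higher in density (medians -1.56 and -0.74).

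Sarcomere and excitation-contraction genes, the structural end of muscle differentiation, held 88 regions with 19 called higher and 18 lower (median -0.23), and with the offset 38 and 6 (median 0.49). Without the offset the called shares were 21.6% and 20.45%, against 19.8% and 16.5% of all intron regions. TTN and NEB, the giant filament proteins, had 1 region each, with log2 fold changes of 0.18 and -0.69 that were not called. With the offset these came to 0.82, called higher, and -0.16, not called. UTRN, the dystrophin relative of early muscle (chr1:20967593-20968274), had the largest change within the limit, from 2.47 and 1.74 CPM over 3.59 and 7.53 to 12.9 and 9.46 (log2 fold change 2.41 ± 0.46, edgeR adjusted p = 0.0118, and 0.0705 without E18 DZ). Axon guidance and neural adhesion genes held the most regions of any list, 512 in 45 hosts, with 93 called higher and 76 lower (18.2% and 14.8%, median -0.01), and with the offset 236 and 29 (median 0.51). Summed starts of 5 annotated neuron markers held 127 and 136.5 CPM at E18 and 96.85 and 93.8 CPM at E28, though STMN2 overlapped between these stages. Endothelial genes held 93 (24 and 11, median 0.17, and with the offset 44 and 7, median 0.48), while the summed start sites of endothelial markers held 50.4 and 56.2 CPM in E18 libraries and 34.3 and 30.5 in E28 libraries, and early embryo genes held 4, of which 1 was called lower (median -0.28, and 0.31 with the offset). All of these lists were drawn up with earlier results of these data known, and their counts are descriptions.

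By distance from a start site, the shares called in each direction differed, as a description with no test. Regions 10 to 20 kb from a start were called higher in 16.3% and lower in 18.7% of cases, and the shares moved to 23.8% and 13.3% for the 1237 regions over 200 kb away. Within the 1.5 times limit 187 of 1104 regions were called higher in the nearest class and 53 of 262 in the farthest, with 33 and 6 lower. Intron 1, intron 2 and later introns differed less, with 19.6%, 20.9% and 19.6% called higher and 18.4%, 17.7% and 15.4% lower.

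For every shared region a window of 300 bases was read at the centre of the longest stretch covered by peaks of all libraries, or, for the 768 intron regions and 1860 shared regions without such a stretch, at the centre of the region. Motif letters were searched on both strands. The CTCF core was found in 8.004% of intron windows and 8.54% of all shared windows, and 69.9% of its 1753 matches in intron windows lay within 50 bases of the centre, which is 33.3% of the window. It was present in 10.2% of the intron regions that were not called from E18 to E28, in 2.52% of those called higher and in 6.10% of those called lower. Sorted by the largest of the 3 stage changes, the share was 20.01% below 0.25 log2 units, 14.9% from 0.25 to 0.5, 9.48% from 0.5 to 1, 4.93% from 1 to 2 and 2.93% above 2. Median CPM in these 5 classes was 3.93 to 4.48, and within each quartile of mean CPM regions changing by under 0.5 held the core more often than those changing by over 1 (18.6% against 6.15% in the lowest quartile and 9.39% against 2.65% in the highest). The core was in 12.2% of intron regions within the 1.5 times limit on covered length and 6.70% of those beyond it. Within the limit it was in 2.52% of higher and 4.51% of lower regions. Among regions called the same way with and without the offset these shares were 2.34% and 4.72%. The part of covered length in the sorting by change was not tested. Over all shared regions the order by call was the same, with 10.7% of those not called, 2.75% of those higher and 7.29% of those lower, so this order is not particular to introns.

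**Figure D5:**
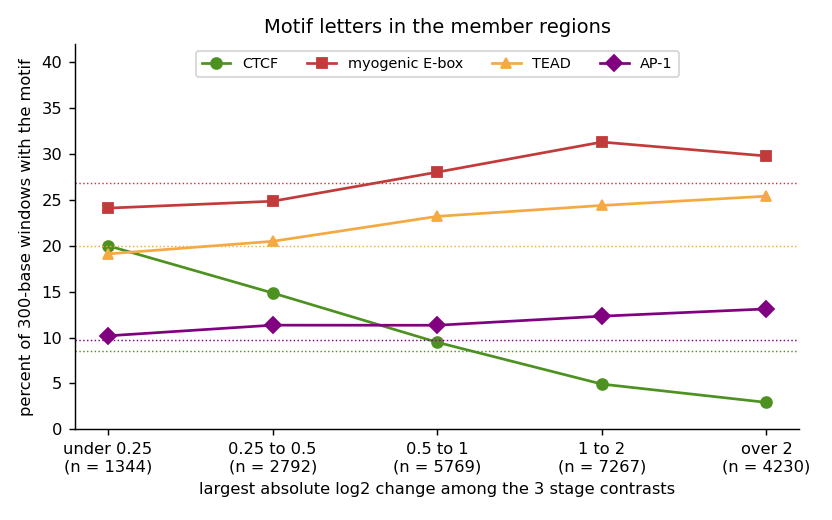
Percent of the 300-base windows of intron regions that hold the CTCF core, the myogenic E-box, the TEAD motif or the AP-1 motif, by the largest absolute log2 change among the 3 stage comparisons (classes of 1344, 2792, 5769, 7267 and 4230 regions); dotted lines give the share in all shared regions. The CTCF share drops from 20.01% to 2.93%, while the E-box share is 24.1% in the steadiest class and 29.8% in the class above 2.

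A steady region with the CTCF core is the SYN3 window printed above, chosen after its values were seen. It was the most open of 123 such regions in hosts with a gene symbol, with all changes under 0.25 and covered lengths within 1.5 times. Its CTCF core stood at bases 267 to 278 of the window, outside the 50 bases around the centre where 69.9% of matches lay. It lay in intron 2 of SYN3, a synapsin of synaptic vesicles (chr5:12071186-12073194), and held 35.8 and 34.2 CPM at E18, 36.8 and 36.3 at E21, then 31.6 and 30.0 at E28. The log2 fold change from E18 to E28 was -0.19 ± 0.10 (edgeR adjusted p = 0.201).

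The myogenic E-box CAGCTG was in 28.8% of intron windows, against 26.9% of all shared windows, 17.9% of start-site windows and 29.6% of intergenic windows. It was in 32.2% of the intron regions called higher from E18 to E28, 29.7% of those called lower and 27.5% of those not called. Base composition differed between these classes, with a median G and C content of 46.7% in higher and 52.3% in lower regions, and the E-box is rich in G and C. Among windows of over 50 and up to 60% G and C, it was in 42.3% of higher and 32.1% of lower regions, and among those of over 40 and up to 50% in 29.9% and 25.9%. The TEAD motif was in 26.3% of higher, 24.0% of lower and 22.4% of regions not called, and AP-1 in 13.0%, 11.2% and 11.8%. Over all shared regions the order was the same for the E-box (28.3%, 27.9% and 26.1%) and the TEAD motif (22.2%, 20.05% and 19.2%), so it is not particular to introns. Of the 14 motifs searched, 7 had the larger share in higher and 7 in lower intron regions, the latter with MEIS and PKNOX (23.3% of higher, 26.4% of lower), ETS (4.80% and 6.87%) and forkhead (4.52% and 5.70%). The ETS shares lay closer within bands of G and C content, with 3.63% and 4.13% at over 40 and up to 50%. At over 50 and up to 60% they were 7.42% and 7.79%. In these 2 bands MEIS and PKNOX had 24.7% and 26.3%, then 23.9% and 27.3%, and forkhead 4.34% and 7.10%, then 4.23% and 5.00%. Among regions called the same way with and without the offset, the TEAD motif was in 26.4% of higher and 26.3% of lower regions, and the E-box was in 32.4% and 29.6%. The grainyhead motif of epithelial factors was in 1.84% and 1.82% of higher and lower regions, and the MEF2 motif in 0.918% and 0.880%. Windows with 15 or more CpG dinucleotides made up 6.09% of intron regions (1304), against 77.8% of start-site regions. Whether some of these intron regions are starts or exons missing from the annotation was not tested.

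The breeds did not separate at the threshold. DZ against ZZ, 0 intron regions and 0% of all shared regions were called with edgeR, while 1170 intron regions (5.47%) had an unadjusted p under 0.05, against 4.94% of all shared regions, and DESeq2 called 46 intron regions (0.215%), against 0.202% of all shared regions. The smallest breed p was in intron 1 of RFX2, a transcription factor of ciliated cells (chr2:72984566-72987190), where ZZ libraries held 24.1, 27.8 and 34.9 CPM in order of stage and DZ libraries 36.7, 41.7 and 61.7. DZ was the higher at every stage, by 0.67 log2 units (edgeR adjusted p = 0.846, and 0.00016 with DESeq2). With 1 library per stage and breed, the size of a breed difference at a given stage could not be tested.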

How the data were processed

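Per the study's methods, the authors aligned reads to Sscrofa11 with Ensembl annotation and quantified peaks with Cell Ranger ATAC (1.2.0 per the file headers). The submitters' processing notes also name Seurat 3.1.1 and Signac 0.2.2. Each deposited matrix gives, per peak and barcode, raw counts of cut sites, and the deposited peak lists hold positions with no score. The deposited peak sets differ between libraries, and a matrix holds no counts outside that library's own peaks.

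Here barcodes with 2000 to 30000 counts were kept and no doublet caller was run. The counts of a library were summed over merged regions, since cells are not replicates and the libraries are the samples compared. Gene bodies, exons and start sites came from RefSeq's annotation of Sscrofa11.1. The 78533 shared regions were fitted with edgeR 4.0.16 (TMM scaling, filterByExpr, quasi-likelihood test, terms for stage and breed, 2 residual degrees of freedom), with Benjamini-Hochberg adjustment over all of them and a threshold of 0.05. CPM are counts per 1000000 counts in shared regions after TMM scaling, except at start sites of markers, where they are per 1000000 kept counts of the library. Log2 fold changes are followed by their standard errors. The script was tested on simulated data. Motif letters were searched in windows of 300 bases read with pysam 0.24.0.

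Regions were named by rule: within covered lengths differing by at most 1.5 times, the 10 largest rises and falls from E18 to E28 and the 4 largest each way in the other steps, 1 per host gene. Regions of hosts known only by a LOC number were counted but passed over in naming, which passed over 4 of the falls from E18 to E28, 1 rise and 2 falls from E18 to E21, and 3 each from E21 to E28. To these came the 5 with highest mean CPM in genes with a symbol, the 3 most open with all changes under 0.1, those peaking or dipping at E21, the smallest breed p, the largest called change in each host list and the regions next to the distance limit. The intron regions and the gene lists were chosen with earlier results of these data known. Alternatives were DESeq2 1.42.0, its size factors in edgeR, no count filter, 2 other barcode filters, covered length as an offset, no breed term, each library left out, distance limits of 5 and 20 kb and a reciprocal overlap of 50%.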

Additional observations from a re-analysis of the deposited data

How the results depend on the processing

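With 1 library per stage and breed, leaving out a library leaves its stage with 1, which the fit assumes to vary like the others. Without 1 library, the number of intron regions called ranged from 2655 to 8244 for E28 against E18, from 0 to 5122 for E21 against E18, from 0 to 4650 for E28 against E21, and from 249 to 1181 for E28 against E18 within the 1.5 times limit on covered length. DESeq2 called 4261 for E21 against E18, 4490 for E28 against E21 and 46 for DZ against ZZ (0 with edgeR). With covered length as an offset 4159 were called for E21 against E18, 6898 for E28 against E21 and 2693 within the limit for E28 against E18. Requiring a reciprocal overlap of 50% left 10852 intron regions. The remaining alternatives kept each count within 1.5 times of its main value. Of 61 named results none that was called changed direction. Of those not called, TRERF1 turned to 0.56 with the offset and NRF1 to -0.0062 with every deposited barcode, and with a library left out ELMSAN1 ranged from -0.049 to 0.18, NHSL1 from -0.080 to 0.096, SLC22A2 from -0.74 to 0.88, PADI1 from -0.20 to 0.67 and NRF1 from -0.28 to 0.32. Without E18 ZZ 12 lost their call, without E18 DZ 25, without E21 ZZ 22, without E21 DZ 23, without E28 ZZ 1 and without E28 DZ 5, and no other alternative took more than 1. With size factors from DESeq2 that was the rise of CNGB3 from E18 to E21. The breed term of the fit already pairs the ZZ and DZ libraries across stages. Without it 1952 were called for E21 against E18 and 1819 for E28 against E21. Low depth limits the weakest regions: 33 to 235 intron regions per library had under 10 counts, and 1234 had a covered length under 100 bp in some library.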
